A study of Mus musculus with 6 samples.

Results

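The 7 subunits of respiratory complex I that the mouse mitochondrial genome encodes, mt-Nd1, mt-Nd2, mt-Nd3, mt-Nd4, mt-Nd4l, mt-Nd5 and mt-Nd6, were followed in 6 RNA sequencing libraries of CD4+ T cells. They were taken as the rows whose Ensembl identifier maps to these symbols. All 7 had a row among the 13685 rows analysed, and all 7 passed the filter on low counts. The cells were WT, came from spleen and mesenteric lymph node of C57BL/6 mice, and had been depleted of regulatory T cells by keeping the CD25- fraction. In 3 libraries the cells had been cultured for 4 h with tunicamycin at 0.15 µg/mL, an inhibitor of N-linked glycosylation and a common trigger of stress in the endoplasmic reticulum. The other 3 came from control cells cultured alike, which the treatment labels call vehicle and the titles call untreated. Each well held 1000000 cells, and each library was made from 200 ng of total RNA with an mRNA kit and read as pairs of 150 bp. Libraries within a group are labelled as technical replicates, with no animals or donors given. Each p-value here therefore speaks of the spread between these libraries and not between mice.

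Complex I, NADH:ubiquinone oxidoreductase, passes electrons from NADH to ubiquinone and pumps protons across the inner mitochondrial membrane. Its mitochondrially encoded subunits form the core of the membrane arm, and all other subunits are encoded in the nucleus and imported. The mitochondrial genome is read from both strands as long precursors that are cut mostly at the tRNAs between the genes. The heavy-strand precursor carries most of the messages, and the light-strand precursor carries a single one, that of mt-Nd6. Activated T cells raise mitochondrial respiration, and resting cells depend on it.

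The genes lie close together on chromosome M (GRCm38, GENCODE M21). On the plus strand of the annotation, which gives the heavy-strand precursor, mt-Nd1 spans 2751 to 3707, mt-Nd2 3914 to 4951, mt-Nd3 9459 to 9806, mt-Nd4l 9877 to 10173, mt-Nd4 10167 to 11544 and mt-Nd5 11742 to 13565. On the minus strand, mt-Nd6 spans 13552 to 14070. Each gene is a single coding exon. The stretches shown first are where members overlap, because reads there can belong to either gene. The last 14 bases of mt-Nd5 and of mt-Nd6, in capitals, are the same 14 base pairs read from opposite strands, and the 7 capital bases in the junction belong to both mt-Nd4l and mt-Nd4.
mt-Nd5 3′ end, chrM:13522-13565, plus strand: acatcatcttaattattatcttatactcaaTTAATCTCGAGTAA
mt-Nd6 3′ end, chrM:13552-13595, minus strand: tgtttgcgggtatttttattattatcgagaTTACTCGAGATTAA
mt-Nd4l to mt-Nd4 junction, chrM:10137-10203, plus strand: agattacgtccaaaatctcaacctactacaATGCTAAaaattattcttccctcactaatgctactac

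The first 60 bases of a long heavy-strand gene and of the light-strand gene show the difference in base composition between the strands, with the start codon in capitals.
mt-Nd5 first bases, chrM:11742-11801, plus strand: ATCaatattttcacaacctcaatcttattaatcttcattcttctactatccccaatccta
mt-Nd6 first bases, chrM:14011-14070, minus strand: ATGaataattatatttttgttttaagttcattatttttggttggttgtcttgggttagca
Over the whole gene, mt-Nd6 was 28.1% G and 5.97% C, and mt-Nd5 was 9.98% G and 27.1% C. The GC content of mt-Nd6, 34.1%, lay within the 33.1% to 41.1% of the heavy-strand members. Sequences and positions are those of GENCODE M21 on GRCm38. The submitters' processing notes name GRCm39, to which positions were not converted.

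The counts of all rows summed to between 10584276 and 11211270 in tunicamycin libraries, against 7412152 to 9495725 in vehicle libraries, so each tunicamycin library was deeper than each vehicle library. The part of depth in the results below was not tested. Of 13 markers of CD4 T cells, 6 had a row, with a summed level of 2600 to 2710 TPM in tunicamycin libraries and 2600 to 2750 TPM in vehicle libraries. Cd4 itself was not analysed here. Markers of B and plasma cells summed to 54.2 to 454 TPM in tunicamycin libraries and 60.7 to 429 TPM in vehicle libraries, lowest in the library numbered 3 of each group. Summed markers of NK cells ran from 11.2 to 16.1 TPM and from 9.03 to 11.3 TPM in tunicamycin and vehicle libraries. Those of CD8 T cells, macrophages with neutrophils, and red cells with platelets overlapped between the groups, and 0 markers with a row were at 0 throughout. The row of Nnt, a transhydrogenase of the inner mitochondrial membrane chosen after its values were seen, held 143, 423 and 375 counts in tunicamycin libraries and 0 in each vehicle library. The labels give no donors, so treatment and any difference in the source of the cells cannot be told apart.

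Levels between genes were compared in TPM, the authors' values per transcript length. The mt-Nd1 transcript had the highest mean, 5797 TPM over the 6 libraries, followed by mt-Nd4 at 5340 TPM, mt-Nd4l at 4199 TPM, mt-Nd2 at 3983 TPM, mt-Nd3 at 3418 TPM, mt-Nd5 at 2585 TPM and mt-Nd6 at 197 TPM. In TPM the 6 heavy-strand members therefore lay within a narrow band, 13.1 to 29.5 times the level of mt-Nd6. The ranges over libraries of mt-Nd1 and mt-Nd4 overlapped, and mt-Nd1 was above in 5 of 6 libraries. The same held for mt-Nd4l and mt-Nd2. The ranges of mt-Nd2 and mt-Nd3 overlapped although mt-Nd2 was above in 6 of 6 libraries. The steps from mt-Nd4 to mt-Nd4l, from mt-Nd3 to mt-Nd5 and from mt-Nd5 to mt-Nd6 were larger than the spread, with no overlap. In counts per annotated kilobase, mt-Nd2 came before mt-Nd4l and mt-Nd5 before mt-Nd3, so 3 of 7 members kept their rank. On that scale mt-Nd6 averaged 0.40% of the members' sum, and the heavy-strand members 10.15% (mt-Nd3) to 25.94% (mt-Nd1). The gap between mt-Nd6 and the heavy-strand members was thus wider than in TPM. All 7 lay below the other 6 mitochondrially encoded transcripts, of which mt-Atp6, a subunit of ATP synthase, was the highest at 17239 TPM and mt-Cytb, the mitochondrially encoded subunit of complex III, the lowest at 6662 TPM.

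**Figure D1:**
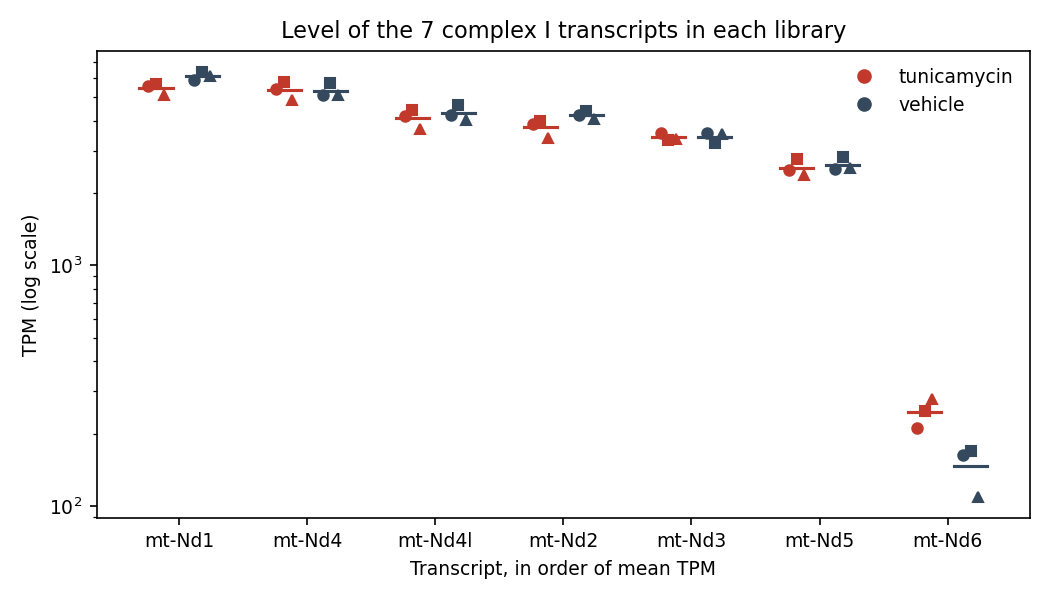
TPM on a log axis of each complex I transcript, in order of mean level, with tunicamycin libraries in red left of vehicle libraries in dark blue. Circles, squares and triangles are libraries numbered 1, 2 and 3 and bars are group means (n = 3). The 6 heavy-strand transcripts sit between 2375 and 6368 TPM, and mt-Nd6 sits between 109 and 278 TPM with its 3 tunicamycin points above its 3 vehicle points.

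The comparison of tunicamycin with vehicle describes how transcript levels differed between the groups after 4 h. In an edgeR quasi-likelihood fit over all 3613 genes that passed the filter, 0 of 7 members passed an adjusted p of 0.05, where 0.0830% of genes tested did. At an unadjusted p under 0.05 stood 5 of 7 members, mt-Nd6 on the higher side and mt-Nd1, mt-Nd2, mt-Nd3 and mt-Nd4l on the lower, and 6.42% of genes tested had such a p. DESeq2 and limma on log2(TPM + 1) called 0 of 7 as well, with 22 and 1 genes called in all. For the same 5 members the CPM of the groups did not overlap, which held for 12.6% of genes tested. In TPM mt-Nd1, mt-Nd2 and mt-Nd6 did not overlap, 3 of 7 members, and that share over all genes was not computed. The lower members mt-Nd1, mt-Nd2, mt-Nd3 and mt-Nd4l correlated with each other at 0.62 to 0.98 over the 6 libraries, so they are not separate results. CPM here are counts scaled to the TMM-adjusted library size (counts per 1000000). In bulk RNA, fewer cells of a type and less RNA per cell cannot be told apart.

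The libraries carry numbers from 1 to 3 in both groups, and same-numbered libraries deviated together. With the number as a replicate block, edgeR called mt-Nd3 and mt-Nd4l lower, 2 of 7 members, where 0.996% of genes tested were called. The calls of all genes went with it, 36 with the block and 3 without. Both calls were lost when the block was joined with effective-length offsets, as described with those genes.

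The mt-Nd1 protein closes the chamber where ubiquinone is reduced, at the joint of the 2 arms of the complex. Its transcript stood at 10885, 10790 and 9565 CPM in tunicamycin libraries 1, 2 and 3, against 11362, 12435 and 11977 CPM in vehicle libraries 1, 2 and 3. Every tunicamycin library was below every vehicle library. The log2 fold change was -0.20 with an SE of 0.07 and a 95% interval of -0.34 to -0.05 (edgeR adjusted p = 0.579). In TPM the groups were also apart, with 5466 ± 313 in tunicamycin and 6129 ± 227 in vehicle (SD, n = 3 each). The difference by number was -0.06, -0.20 and -0.32 on the log2 CPM scale. With the replicate block the value was -0.20 (edgeR adjusted p = 0.0593).

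Of the subunits that resemble bacterial antiporters and line the proton channels of the membrane arm, mt-Nd2 lies nearest to the quinone end, mt-Nd4 in the middle and mt-Nd5 at the tip. The mt-Nd2 transcript stood at 7223, 7268 and 6050 CPM in tunicamycin libraries and 7653, 8237 and 7593 CPM in vehicle libraries, again without overlap. Its log2 fold change was -0.19 with an SE of 0.08 and a 95% interval of -0.36 to -0.03 (edgeR adjusted p = 0.648, and 0.0556 with the replicate block). Without tunicamycin library 3 it was -0.11. Its TPM, 3745 ± 320 in tunicamycin and 4222 ± 165 in vehicle (SD, n = 3 each), did not overlap either.

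The mt-Nd4 transcript, the most counted of the 7, stood at 12848, 13395 and 11220 CPM in tunicamycin libraries and 11836, 13799 and 12306 CPM in vehicle libraries. The groups lay on top of each other. Its log2 fold change was -0.02 with a 95% interval of -0.19 to 0.16 (edgeR adjusted p = 0.987), and its sign turned to 0.02 without a composition factor and to 0.00 in limma on log2(TPM + 1). The mt-Nd5 transcript stood at 10534, 11363 and 9737 CPM in tunicamycin libraries and 10719, 12375 and 11159 CPM in vehicle libraries, with overlap. Its log2 fold change was -0.11 with a 95% interval of -0.28 to 0.05 (edgeR adjusted p = 0.858). With the replicate block it was -0.115 with a 95% interval of -0.203 to -0.027 (edgeR adjusted p = 0.255). Without the block, the mt-Nd5 value was -0.06 when tunicamycin library 3 was left out and -0.05 when vehicle library 2 was.

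The small subunits mt-Nd3, mt-Nd4l and mt-Nd6 sit between the quinone chamber and the antiporter-like subunits, and a loop of mt-Nd3 changes position between the active and deactive states of the mammalian enzyme. The mt-Nd3 transcript stood at 1584, 1426 and 1431 CPM in tunicamycin libraries and 1718, 1638 and 1717 CPM in vehicle libraries. All 3 tunicamycin values were below the lowest vehicle value. Its log2 fold change was -0.19 with an SE of 0.06 and a 95% interval of -0.32 to -0.06 (edgeR adjusted p = 0.440, and 0.0348 with the replicate block).

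On the TPM scale the mt-Nd3 groups overlapped, at 3537, 3332 and 3366 TPM in tunicamycin libraries and 3536, 3224 and 3513 TPM in vehicle libraries. The log2 difference was then -0.00 in limma on log2(TPM + 1). Joined with offsets for effective length, the blocked edgeR value was -0.06 with an adjusted p = 0.718.

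The mt-Nd4l transcript, whose message mt-Nd4 shares in mammals, stood at 1825, 1852 and 1528 CPM in tunicamycin libraries and 1972, 2269 and 1900 CPM in vehicle libraries, without overlap. Its log2 fold change was -0.24 with an SE of 0.09 and a 95% interval of -0.43 to -0.05 (edgeR adjusted p = 0.628, and 0.0153 with the replicate block). It was -0.15 without tunicamycin library 3 and -0.16 without vehicle library 2. On the TPM scale its groups overlapped, at 4091 ± 380 in tunicamycin and 4307 ± 317 in vehicle (SD, n = 3 each). The limma value on log2(TPM + 1) was -0.08, and the blocked edgeR value with effective-length offsets was -0.14 with an adjusted p = 0.397.

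A gap between the scales was seen for the 3 members under 900 bases. The effective length, the number of positions at which a fragment could start, can be read from the ratio of a row's deposited count to its TPM, relative to the other rows of the library. On the log2 scale it was lower in tunicamycin than in vehicle by 0.14 for mt-Nd3 (348 bases), 0.12 for mt-Nd4l (297 bases) and 0.18 for mt-Nd6 (519 bases). In these 3 members the groups did not overlap (exact permutation test, p = 0.1 each, the smallest that 3 against 3 libraries allow). The share of all genes without overlap in effective length was not computed, so this count has no background. For the 4 members of at least 900 bases the difference ran from -0.02 to 0.03, with overlap. The still shorter mt-Atp8 (204 bases), an ATP synthase transcript named after its values were seen, had a difference of 0.02, also with overlap. Relative to the other rows of the same library, a given TPM of the 3 members thus went with fewer counts in tunicamycin than in vehicle. This does not hold for the counts as deposited, since tunicamycin libraries were deeper.

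The mt-Nd6 subunit, which carries part of the path that couples quinone reduction to proton pumping, was the only member with a log2 fold change above 0. Its transcript had estimated counts of 1031, 1243 and 1330 in tunicamycin libraries and 618, 684 and 512 in vehicle libraries. Scaled to depth it stood at 96.8, 109 and 120 CPM in tunicamycin libraries and 83.1, 91.2 and 55.8 CPM in vehicle libraries. The lowest tunicamycin value lay just above the highest vehicle value, and vehicle library 3 was well below all others. The Poisson 95% intervals of these nearest libraries, for counting error only, were 91.0 to 103 CPM in tunicamycin library 1 and 84.5 to 98.3 CPM in vehicle library 2, so they overlapped.

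The log2 fold change of mt-Nd6 was 0.51 with an SE of 0.17 and a 95% interval of 0.12 to 0.89, or 1.42-fold (edgeR adjusted p = 0.590). In TPM it stood at 211, 249 and 278 in tunicamycin libraries and 163, 169 and 109 in vehicle libraries, or 1.67-fold. By number the log2 CPM difference was 0.22, 0.25 and 1.11, so the libraries numbered 3 held most of it. Without vehicle library 3 the log2 fold change was 0.32, 1.59 times smaller, and without both libraries numbered 3, an alternative chosen after seeing the data, it was 0.24. Over the 20 alternatives the sign stayed positive and the edgeR, DESeq2 or limma adjusted p lay between 0.307 and 1.0.

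**Figure D2:**
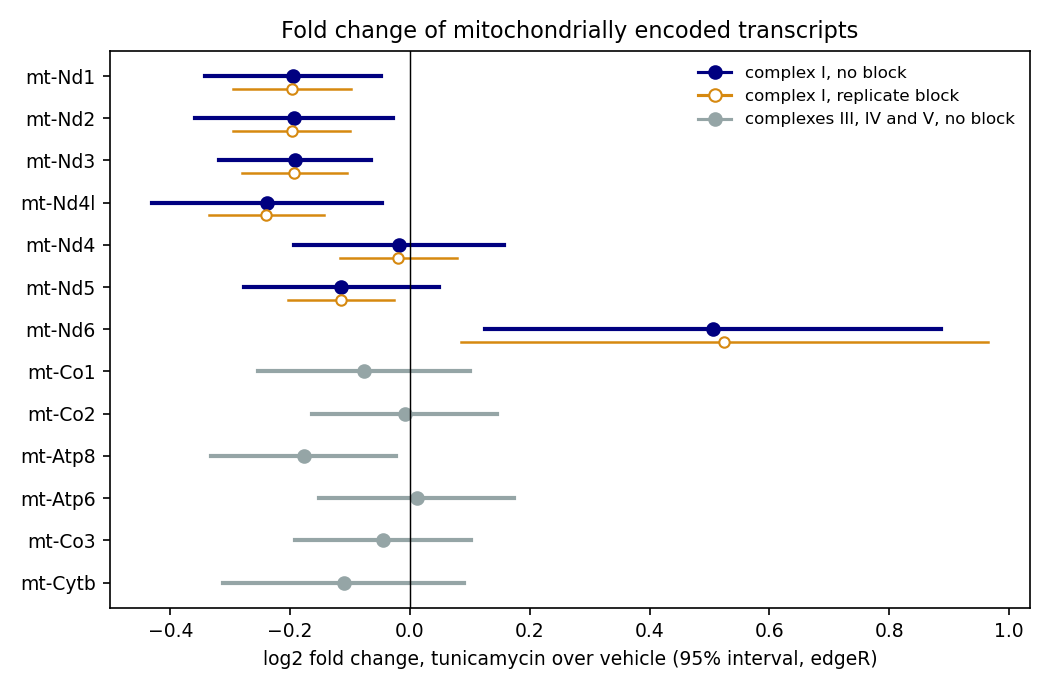
Log2 fold change of the 13 mitochondrially encoded transcripts, tunicamycin over vehicle, with 95% intervals from edgeR, for complex I without a block (blue) and with a replicate block (orange, open) and for the other complexes without a block (grey). Among complex I transcripts 6 lie below 0, from -0.24 to -0.02, and mt-Nd6 lies at 0.51.

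Because a ratio within a library needs no scaling between libraries, mt-Nd6 was also set against the 6 heavy-strand members summed. For each read of mt-Nd6 there were 464, 424 and 329 reads of the heavy-strand members in tunicamycin libraries and 544, 556 and 837 in vehicle libraries. The groups did not overlap. The log2 ratio of mt-Nd6 to the heavy-strand members averaged -8.65 ± 0.26 in tunicamycin and -9.31 ± 0.35 in vehicle (SD, n = 3 each). The means were 0.66 apart (exact permutation test, 2-sided, p = 0.1, the smallest possible). The difference was 0.23, 0.39 and 1.35 in libraries numbered 1, 2 and 3. In TPM it was 0.84, and against all 12 heavy-strand transcripts it was 0.61. Without both libraries numbered 3 it was 0.31, and without vehicle library 3 it was 0.46.

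**Figure D3:**
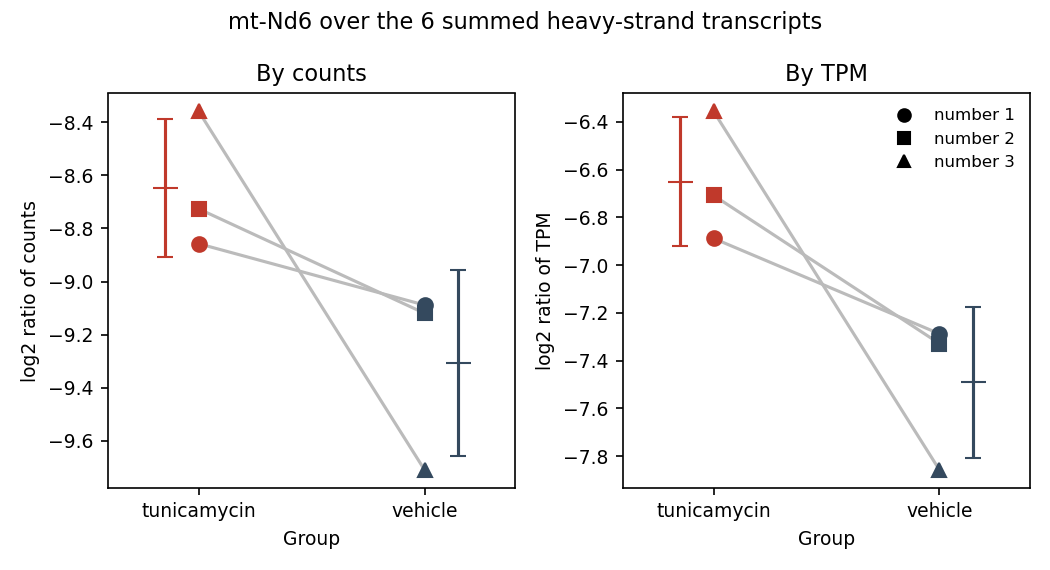
Log2 ratio of mt-Nd6 to the summed 6 heavy-strand complex I transcripts in each library, from counts (left) and TPM (right), with tunicamycin left of vehicle. Grey lines join libraries of the same number, and crossbars give the mean and SD of 3 libraries. All 3 lines slope down to vehicle, and the line of number 3 is the steepest, with a difference of 1.35 in counts.

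Against its neighbour mt-Nd5, which ends on the same 14 base pairs printed above, mt-Nd6 gave a like ratio. There were 109, 104 and 80.9 reads of mt-Nd5 per read of mt-Nd6 in tunicamycin libraries and 129, 136 and 200 in vehicle libraries, a log2 difference of 0.64 (exact permutation test, p = 0.1). Whether counting used the strand is not given in the sources used here. Without strand, reads of mt-Nd6 and reads of the heavy-strand precursor across the same bases cannot be told apart. In human cells the ND6 message is known to lack a poly(A) tail, and the libraries here came from an mRNA kit, so the level of mt-Nd6 against the other members may not be that in the cell.

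Ratios between single members were compared in the same way. Of 21 pairs of members, the count ratio did not overlap between the groups in 10, namely 6 of 6 pairs with mt-Nd6 and 4 of 15 pairs of heavy-strand members. Among all pairs of well counted genes 14.3% of count ratios did not overlap. The 6 pairs with mt-Nd6 share its values, and its CPM did not overlap by itself, so they are not separate results. The 4 heavy-strand pairs all held mt-Nd4, which was higher in tunicamycin relative to mt-Nd1, mt-Nd2, mt-Nd4l and mt-Nd5. They share the mt-Nd4 values and are not separate results. As mt-Nd4l and mt-Nd4 share a message, the shift in their ratio does not compare separate messages. The log2 ratio of mt-Nd4l to mt-Nd4 differed by -0.22 in counts and -0.08 in TPM, and the source of this shift was not tested. In TPM 7 of 15 heavy-strand pairs did not overlap, these 4 among them. The share over all gene pairs was not computed in TPM, so this count has no background.

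The ratio of mt-Nd1 and mt-Nd2 to mt-Nd4 was chosen because these pairs were seen not to overlap, and is given as a description with no test. On the log2 scale it was 0.50, 0.43 and 0.48 in tunicamycin libraries, against 0.68, 0.58 and 0.67 in vehicle libraries. Every tunicamycin library was below every vehicle library, and the differences by number, -0.19, -0.15 and -0.19, were close to each other. The mean difference was -0.18 in counts and -0.18 in TPM. The mt-Nd5 gene, which lies beyond mt-Nd4 on the precursor, was also lower relative to mt-Nd4 in tunicamycin, with the log2 ratio of mt-Nd4 to mt-Nd5 at 0.24 ± 0.04 in tunicamycin and 0.15 ± 0.01 in vehicle (SD, n = 3 each). The mt-Nd1, mt-Nd2, mt-Nd4 and mt-Nd5 genes each have at least 900 bases and an effective length that overlapped between the groups.

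**Figure D4:**
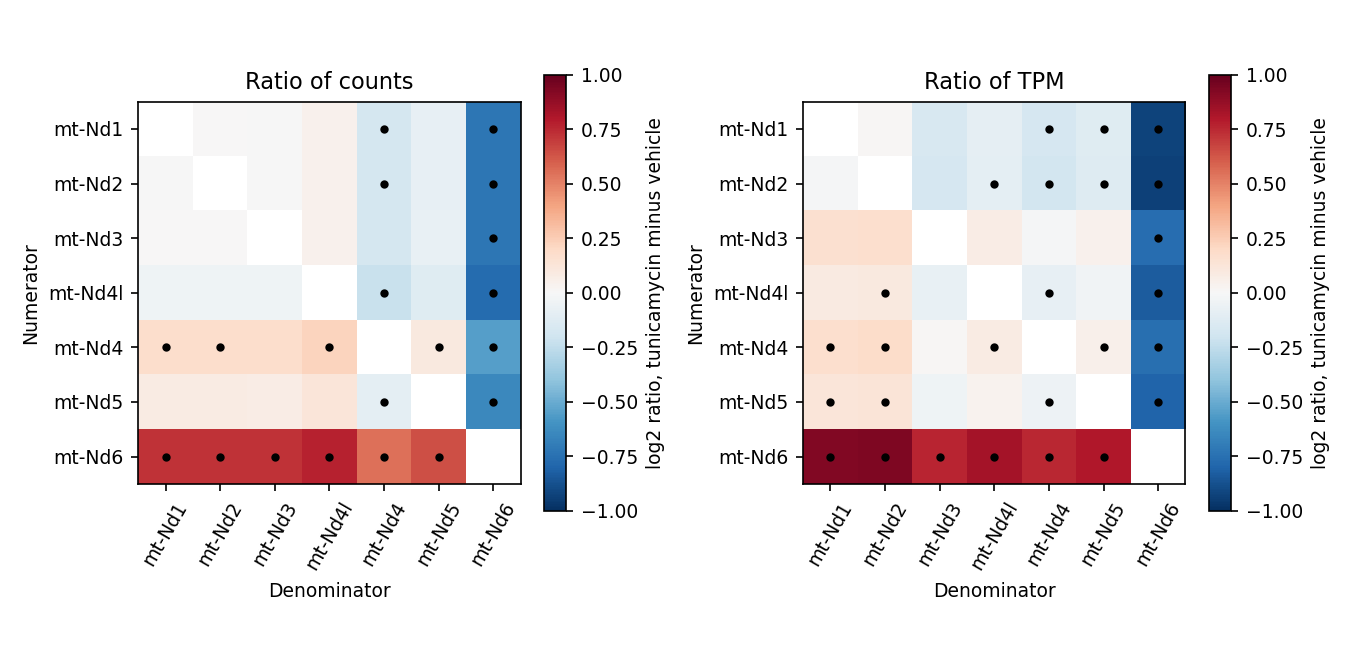
Difference between the groups, tunicamycin minus vehicle, in the log2 ratio of each pair of complex I transcripts, from counts (left) and TPM (right), numerators in rows and denominators in columns. Dots mark pairs whose libraries do not overlap between the groups. The mt-Nd6 row is red throughout, and the mt-Nd4 row is red against mt-Nd1 and mt-Nd2 in both.

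Across single libraries 5 of the 6 heavy-strand members shared their highest and lowest library, and mt-Nd3 did not. The mean log2 deviation of the 6 from the level over all libraries was -0.02, -0.01 and -0.21 in tunicamycin libraries and 0.03, 0.16 and 0.05 in vehicle libraries. Tunicamycin library 3 was lowest for mt-Nd1, mt-Nd2, mt-Nd4l, mt-Nd4 and mt-Nd5, and vehicle library 2 was highest for the same 5. The light-strand member was at 0.10, 0.27 and 0.42 in tunicamycin libraries and -0.12, 0.02 and -0.69 in vehicle libraries. It was thus highest in the library where most heavy-strand members were lowest.

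**Figure D5:**
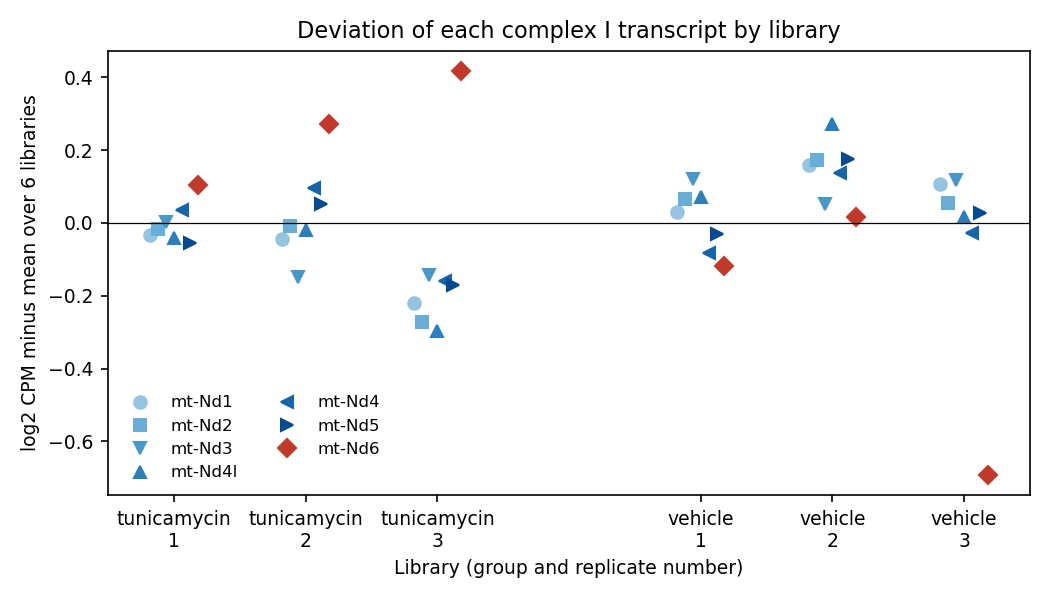
Log2 CPM of each complex I transcript in each library, minus its mean over the 6 libraries, with tunicamycin libraries left of vehicle libraries. Red diamonds are mt-Nd6 and blue symbols are the heavy-strand transcripts. In tunicamycin library 3 mt-Nd6 stands at 0.42 and the blue symbols lie below 0, and in vehicle library 3 mt-Nd6 stands at -0.69.

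As a group the 7 members took 4.42% ± 0.35 of the counts of all rows in tunicamycin and 4.69% ± 0.27 in vehicle (SD, n = 3 each), with overlap (exact permutation test, p = 0.5). Within the 13 mitochondrially encoded transcripts their share was 26.3%, 26.1% and 26.1% in tunicamycin libraries, against 27.4%, 26.9% and 27.0% in vehicle libraries. The groups did not overlap, with a difference of -0.95 percentage points (exact permutation test, p = 0.1). In TPM that share was 23.9% ± 0.16 in tunicamycin and 24.1% ± 0.47 in vehicle (SD, n = 3 each), with overlap. Inside the group, mt-Nd4 took 28.6% ± 0.35 of the members' counts in tunicamycin and 26.5% ± 0.54 in vehicle, and mt-Nd6 took 0.251% ± 0.046 and 0.161% ± 0.036 in tunicamycin and vehicle (SD, n = 3 each).

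The other 6 mitochondrially encoded transcripts with a row were all on the heavy strand and had 0 calls in edgeR. An unadjusted p under 0.05 was seen for 1 of 6, and for 6.42% of genes tested. The median log2 fold change of these 6 was -0.06, beside -0.19 for the 6 heavy-strand complex I members and 0.00 for all genes tested. In TPM the contrast was not there: the median difference in log2(TPM + 1) was -0.05 for these 6, -0.06 for the 6 heavy-strand complex I members and 0.05 for all genes tested. The catalytic subunit of cytochrome c oxidase, mt-Co1, was at -0.08, mt-Cytb at -0.11 and mt-Atp6 at 0.01. The 1 with the small p was mt-Atp8 at -0.18 (95% interval -0.33 to -0.02).

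The nuclear partners that could be tested showed no called change. Of 37 listed nuclear complex I subunits, 13 had a row. All 13 were tested, 0 were called and 0 reached an unadjusted p of 0.05. Their median log2 fold change was -0.02. Ndufa6, an accessory subunit, stood at 419 ± 31.0 CPM in tunicamycin and 424 ± 2.19 CPM in vehicle, and Ndufb7 at 192 ± 5.03 CPM in tunicamycin and 190 ± 11.5 CPM in vehicle (SD, n = 3 each). The accessory subunits Ndufb4 and Ndufa1 had log2 fold changes of 0.27 (95% interval -0.03 to 0.56) and -0.17 (95% interval -0.37 to 0.04).

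Of 21 listed assembly factors, 9 had a row. All 9 were tested and 0 called, with a median of 0.08. The membrane arm factor Tmem126b stood at 93.1 ± 3.67 CPM in tunicamycin and 76.6 ± 7.27 CPM in vehicle, and the assembly factor Dmac1 at 56.5 ± 6.63 CPM in tunicamycin and 73.7 ± 6.23 CPM in vehicle (SD, n = 3 each). Their log2 fold changes were 0.28 and -0.38 (edgeR adjusted p = 0.614 and 0.528). Neither overlapped between the groups, which held for 12.6% of genes tested. Timm21, a subunit of the inner membrane translocase, was at -0.00.

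Of 20 genes that copy and transcribe mitochondrial DNA, 6 had a row. All 6 were tested and 0 called, with a median of -0.00. The mitochondrial thymidine kinase Tk2 was at 0.08, the helicase Twnk at -0.10 and Tfb1m, which methylates the small ribosomal RNA, at -0.25 (95% interval -0.71 to 0.21). Of 29 genes of mitochondrial RNA processing, stability and decay, 7 had a row. All 7 were tested and 0 called, with a median of -0.07. The oligoribonuclease Rexo2 was at -0.07 and Ptcd3, of the small mitochondrial ribosomal subunit, at 0.10. Lactb2, a mitochondrial endoribonuclease, was at -0.30 (95% interval -0.58 to -0.01, edgeR adjusted p = 0.720), and Trmt10c, a subunit of the RNase P that cuts the precursors at tRNAs, at -0.18 (95% interval -0.43 to 0.07).

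The genes most like mt-Nd6 in pattern were sought among 1899 well counted genes that are not mitochondrially encoded, by Pearson's correlation of log2 CPM over the 6 libraries, as a description. They were Khnyn, Brd9, Abcd4, Gm35339 and Snx33, with correlations of 0.98 to 0.99. Brd9, a bromodomain subunit of a chromatin remodelling complex, stood at 275, 295 and 312 CPM in tunicamycin libraries and 255, 262 and 213 CPM in vehicle libraries, with vehicle library 3 lowest as for mt-Nd6. The genes most like the mean of the heavy-strand members were Tfap4, Ppp6c, Pop7, Mtrf1l and Ring1, with correlations of 0.93 to 0.96. All 6 points share their libraries and depths.

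Copies of mitochondrial genes in the nuclear genome can share reads with the members. Annotated transcripts that match at least 100 bases at 90% identity or more were found for 6 of 7 members, with mt-Nd1 the exception. The copies Gm28439 of mt-Nd4 and Gm10222 of mt-Nd4l were identical over 876 and 294 bases. Only Gm10222, at 0 in each library, and Gm4076, a copy of mt-Nd5 with 8 to 13 counts in tunicamycin libraries and 3 to 6 in vehicle libraries, had a row. How reads were split between members and copies is not known, so the levels of these 6 members are uncertain to that extent.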

How the data were processed

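RNA of CD4+ T cells was measured in 6 libraries, 3 per group. Per the submitters' processing notes, bcl2fastq, Salmon and DESeq2 were used with the genome build GRCm39, with no version or role given. The authors deposited estimated counts per gene, partly fractional and not scaled to depth, and TPM values for the same rows. Of 13685 rows 6932 were at 0 in every library, and 13627 identifiers matched a symbol.

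Estimated counts were rounded to whole numbers, filtered with filterByExpr (3613 genes left), and scaled with TMM factors. The test was edgeR's quasi-likelihood F test (2-sided, robust; edgeR 4.0.16, R 4.3.3). Adjustment was by Benjamini-Hochberg over all 3613 genes, with a threshold of 0.05. Well counted genes, 1912 in all, had a mean of at least 5 log2 CPM. Over them the median half-width of the 95% interval was 0.20 log2. Ratios and shares within a library were compared by exact permutation over the 6 libraries, which cannot give a p under 0.1, or over 3 pairs, which cannot give one under 0.25. Nuclear copies were found with blastn 2.17.0 on GENCODE M21 transcripts. The fit was tested on simulated data.

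The replicate numbers stand in the titles and library names. Over the 1912 well counted genes, deviations from the group means correlated at 0.32, 0.12 and 0.27 between libraries numbered 1, 2 and 3, and at -0.33 to 0.08 between libraries of different numbers. The numbers were therefore taken to pair the libraries. The evidence is limited, because deviations within a group sum to 0, so values above 0 for some pairs force values below 0 for others. The 0.12 of number 2 was also close to the highest value between different numbers, 0.08. The replicate block is given beside a result where it changes a call, and for mt-Nd1, mt-Nd2 and mt-Nd5.

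Alternatives were DESeq2 1.42.0, limma 3.58.1 on log2(TPM + 1) and log2(TPM + 0.1), other scalings and filters, effective-length offsets, a replicate block and leaving out libraries. The members, gene lists and tests were chosen with earlier results of these data known. All 7 members are named. Of each list of nuclear genes the rule names the genes past the threshold or, with fewer than 2, the 2 with the highest mean and the 2 with the smallest p.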

Additional observations from a re-analysis of the deposited data

How the results depend on the processing

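The 7 fold changes were recomputed under 20 alternatives each. The sign held in all of them for mt-Nd1, mt-Nd2, mt-Nd3, mt-Nd4l, mt-Nd5 and mt-Nd6, and turned in 6 for mt-Nd4, whose value was 0.024 without a composition factor, 0.0049 in limma on log2(TPM + 1) and on log2(TPM + 0.1), 0.035 without both libraries numbered 3, and -0.067 to 0.055 when leaving out single libraries. With the replicate block, mt-Nd3 at -0.19 and mt-Nd4l at -0.24 passed the threshold (edgeR adjusted p = 0.0348 and 0.0153, with ranges of 0.0348 to 1.0 and 0.0153 to 1.0 over all alternatives). Without single libraries mt-Nd2 ran from -0.23 to -0.11, mt-Nd4l from -0.29 to -0.15 and mt-Nd5 from -0.17 to -0.05. The block changed no other member's call. The number of genes called, 3 in all, was 22 with DESeq2, 1 with limma on log2(TPM + 1), 16 without a filter on low counts, 36 with the replicate block, 6 with the block and effective-length offsets, and 1 to 5 when leaving out single libraries, with 1 without vehicle library 2 and 5 without vehicle library 3. By counts per annotated kilobase, 3 of 7 members kept their rank. The cause was not tested for any of these. Differences in the ratios and shares kept their sign under each alternative run, from 0.31 to 0.84 for mt-Nd6 to the heavy-strand members. In pairs the exact p was 0.25, the smallest possible. Depth limits mt-Nd6, at 512 to 1330 counts per library, more than the other members.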

Other observations

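Genes of mitochondrial protein quality control and of the unfolded protein response, the response tunicamycin is used to induce, were looked at beside the complex I members. Of 18 listed quality control genes, 4 had a row. All 4 were tested and 0 called by edgeR, with 0 at an unadjusted p under 0.05 and a median log2 fold change of -0.04. The chaperonin subunit Hspe1 stood at 255, 304 and 262 CPM in tunicamycin libraries and 255, 300 and 301 CPM in vehicle libraries, with overlap. Grpel1, a nucleotide exchange factor of the mitochondrial Hsp70, was at -0.13 (95% interval -0.32 to 0.06), and the matrix protease subunit Clpp at 0.29 (95% interval -0.02 to 0.61). Of 16 listed sensors and targets of the unfolded protein response, 6 had a row. All 6 were tested and 0 called by edgeR, with a median of -0.00. An unadjusted p under 0.05 was seen for 1 of 6, and for 6.42% of genes tested. The 1 gene, the chaperone Calr, stood at 1444, 1506 and 1492 CPM in tunicamycin libraries and 1601, 1617 and 1662 CPM in vehicle libraries. Its groups did not overlap, which held for 12.6% of genes tested. Atf4 was at -0.05 (95% interval -0.19 to 0.10) and Dpagt1 at 0.18 (95% interval -0.18 to 0.55), both with overlap. Of the 6 genes, 3 had a log2 fold change above 0 and 3 below 0.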
